A study of Mus musculus with 17 samples.

Results

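Sst, Npy, Vip, Cck, Cort, Tac2, Pdyn and Pnoc encode the precursors of the main neuropeptides that cortical neurons make, and they are described here in the medial prefrontal cortex (mPFC) and neocortex of mice exposed to chronic unpredictable stress (CUS). These 8 genes were taken by symbol from 36293 genes counted in bulk nuclear RNA and from 37608 genes in the table of single nuclei, and all 8 were found in both. Nuclear RNA was sequenced in bulk from an mPFC punch of 4 control and 5 CUS mice at postnatal day 90, and by droplets (sNucDrop-seq) from the neocortex of 4 control and 4 CUS mice at postnatal day 80. All mice were males labeled C57BL/6 (C57Bl/6J in the Methods), and each is 1 replicate. CUS mice received 3 changing stressors a day for 12 days from an age of 9 to 10 weeks, and control mice were handled daily, housed in a separate room and not stressed. Tissue for single nuclei was taken 24 h after the final stressor. For the bulk tissue the sources differ, the labels placing it 24 h after the final stressor and the Methods 24 h after the last behavioral test.

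Neuropeptides are cut from larger precursor proteins, packed into dense-core vesicles and released during sustained firing, after which they act on G protein-coupled receptors of nearby cells. In the cortex most of them are made by GABAergic interneurons, and the peptide a cell makes is used to tell the interneuron families apart: somatostatin (Sst) cells reach the distal dendrites of pyramidal cells, vasoactive intestinal peptide (Vip) cells mostly inhibit other interneurons, and neuropeptide Y (Npy) is shared by neurogliaform cells and by some Sst cells. Cholecystokinin (Cck) is also made by many pyramidal cells, and prodynorphin (Pdyn) is made in quantity by striatal projection neurons that carry the D1 dopamine receptor.

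The coding ends of Sst and Cort are shown first, since the peptides of both genes, somatostatin and cortistatin, act on the same somatostatin receptors. The GENCODE coding sequences of Sst and Cort (mm10) were aligned without gaps at their ends. Among small shifts of Cort the one with the most identical bases was taken, and 31 of the 42 bases were identical (73.8%). Capitals mark identical bases, each sequence reads 5′ to 3′, and the window for Cort stops 3 bases before its last coding base.
Sst: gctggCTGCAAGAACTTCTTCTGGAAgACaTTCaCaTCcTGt
Cort: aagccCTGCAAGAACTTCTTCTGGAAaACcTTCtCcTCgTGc
The run of 21 identical bases is also the longest stretch that the transcripts of both genes shared.

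Promoter windows of Sst, Vip, Cck, Cort and Npy are shown because Sst is a textbook target of the cAMP response element, which is bound by CREB, and Npy is shown beside the others as the gene with the largest bulk difference. Each window runs from position -100 to position -1 before the RefSeq start on the gene's own strand. Capitals mark the longest match to TGACGTCA, TGACGT or TGACG on either strand, the shorter motifs being parts of the longer one. The windows are chr16:23890845-23890944 on the minus strand for Sst, chr10:5639118-5639217 on the plus strand for Vip, chr9:121495695-121495794 on the minus strand for Cck, chr4:149126764-149126863 on the minus strand for Cort and chr6:49822610-49822709 on the plus strand for Npy, all in GRCm38.p6.
Sst: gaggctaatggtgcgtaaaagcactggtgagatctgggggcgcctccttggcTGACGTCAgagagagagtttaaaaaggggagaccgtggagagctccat
Vip: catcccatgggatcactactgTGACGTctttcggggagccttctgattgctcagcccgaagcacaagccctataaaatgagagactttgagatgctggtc
Cck: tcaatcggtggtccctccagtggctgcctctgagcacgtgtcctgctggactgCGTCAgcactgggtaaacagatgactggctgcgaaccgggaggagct
Cort: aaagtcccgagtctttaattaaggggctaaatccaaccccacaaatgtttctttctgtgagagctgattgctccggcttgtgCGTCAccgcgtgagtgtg
Npy: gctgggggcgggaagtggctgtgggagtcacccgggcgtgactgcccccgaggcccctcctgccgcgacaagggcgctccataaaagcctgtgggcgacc
Sst holds the whole palindrome at -48, Vip holds TGACGT at -79, Cck and Cort hold CGTCA at -47 and -18, and Npy holds none of the motifs. In whole RefSeq promoters of equal length, TGACG on either strand was found in 4 of the 7 neuropeptide genes with a promoter in the table and in 20.8% of all 32851 promoters. TGACGT was found in 7.51% and TGACGTCA in 1.79% of all promoters.

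Bulk libraries held 26188825 to 30525015 counts on genes, and filtered single-nucleus libraries held 4699542 to 12477099 unique molecular identifiers (UMIs) over 1935 to 4235 nuclei per mouse, with a median of 2010 UMIs per nucleus. Counts of any 2 mice of 1 group differed by more than sampling noise (chi-square at least 2.67 times its degrees of freedom), so each mouse was counted as its own sample. Bulk control 4 stood apart in striatal genes, with Drd2 at 19.1 CPM (counts scaled to a common library total) against 1.18 to 4.12 in the other 8 mice. In the nuclei, CUS mouse 2 had a summed level of 10 striatal genes of 1283 CPM, against 617 to 749 in the other CUS mice and 925 to 966 in the control mice. Values without these mice stand beside the results that they moved most. In bulk, control mouse 2 and CUS mouse 2 were the highest of their groups for Gad1, at 97.2 and 78.9 CPM. The others had at most 68.4 CPM in control and 51.3 CPM in CUS mice. Vipr2 was at 11.9 and 9.71 CPM in these mice, against at most 5.45 CPM in the others. Among the kept nuclei, 20 barcodes occurred in more than 1 mouse (41 nuclei).

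In bulk mPFC RNA, 7 of the 8 neuropeptide genes had a higher mean in CUS than in control mice, Pdyn being the exception, and none passed the false discovery rate (FDR) of 0.05 in edgeR's quasi-likelihood test, which called 3.29% of 18394 tested genes. The likelihood ratio test of edgeR, which is the test the study used in bulk, here called Sst, Npy and Vip at that FDR, against 7.23% of all genes. DESeq2 called the same 3, against 7.68%. At an unadjusted p under 0.05 the quasi-likelihood test had 5 of the 8 genes (Sst, Npy, Vip, Cck and Tac2), all higher in CUS mice, against 21.5% of all genes in either direction and 10.1% that were higher. The median log2 difference of the 8 genes was 0.29, and that of all tested genes was 0.01, with 9442 of 18394 above 0. In such a tissue sample, a different number of cells of a type and a different amount of RNA per cell cannot be told apart.

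**Figure D1:**
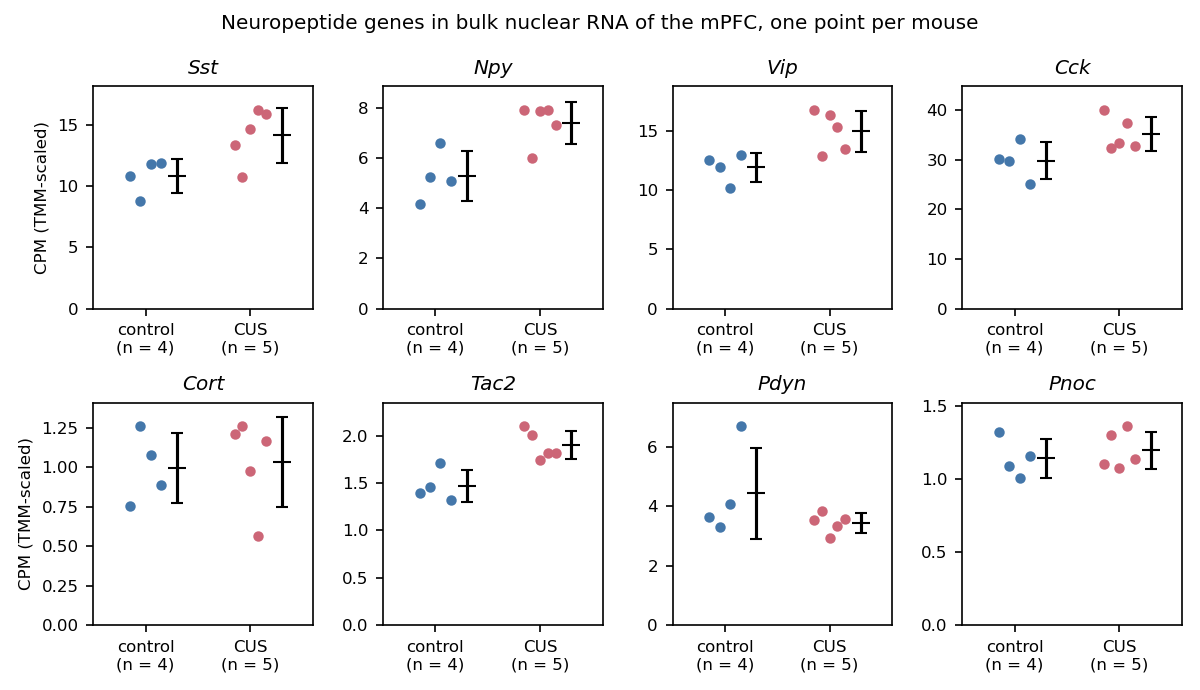
CPM of each neuropeptide gene in bulk nuclear RNA of the mPFC (vertical axes from 0, scaled by TMM), with 1 point per mouse and the mean ± SD beside it, for 4 control (blue) and 5 CUS (red) mice. Only the Tac2 groups do not overlap, and control mouse 4 stands above the others for Pdyn, at 6.69 CPM.

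Npy (chr6:49822710-49829507, mm10), whose peptide dampens transmitter release, had the largest difference of the 8 genes. It stood at 4.17, 5.26, 6.61 and 5.11 CPM in control mice 1 to 4 and at 7.94, 6.01, 7.90, 7.92 and 7.31 CPM in CUS mice 1 to 5. All CUS mice but the second lay above every control mouse, and CUS mouse 2 lay below control mouse 3 alone. The means were 5.29 ± 1.00 CPM (SD, n = 4) and 7.42 ± 0.827 CPM (SD, n = 5), a 1.41-fold difference (log2 0.49, SE 0.13, edgeR quasi-likelihood FDR 0.0606). Leaving out each mouse in turn, the log2 difference of Npy ranged from 0.39 to 0.61. Npy passed the FDR when control mouse 3 or CUS mouse 2 was left out, with log2 differences of 0.61 and 0.56, in fits that called 8.1% and 3.32% of all genes. It also passed without the filter on low counts, where 2.59% of all genes did.

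Sst (chr16:23889573-23890958, mm10) encodes somatostatin. Its level was 10.8, 8.83, 11.8 and 11.9 CPM in the control mice and 13.4, 10.7, 14.7, 16.3 and 15.9 CPM in the CUS mice. CUS mouse 2 fell within the control range, and the other 4 CUS mice lay above it. The difference of the means, 10.8 ± 1.43 CPM (SD, n = 4) against 14.2 ± 2.24 CPM (SD, n = 5), was 1.31-fold (log2 0.39, SE 0.12, edgeR quasi-likelihood FDR 0.0952). Without CUS mouse 2 the log2 difference was 0.47, past the FDR that 3.32% of all genes passed in that fit. Over all fits that left out 1 mouse, it ranged from 0.30 to 0.47.

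Vip (chr10:5639218-5647617, mm10) encodes the peptide of interneurons that inhibit other interneurons. Control mice had 12.6, 11.9, 10.2 and 12.9 CPM, and CUS mice had 16.8, 12.9, 16.4, 15.3 and 13.5 CPM. The groups touched at control mouse 4 and CUS mouse 2. The means of 11.9 ± 1.20 CPM (SD, n = 4) and 15.0 ± 1.74 CPM (SD, n = 5) differed 1.26-fold (log2 0.33, SE 0.10, edgeR quasi-likelihood FDR 0.0749).

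Cck (chr9:121489824-121495694, mm10) had the highest level of the 8 genes, 22.8 CPM per kilobase of exon in the control mice, against 15.0 for Sst, 9.34 for Npy, 3.50 for Vip, 1.53 for Pdyn, 1.47 for Cort, 1.07 for Tac2 and 0.528 for Pnoc. Per kilobase of the whole gene, introns included, Sst came first with 7.83 CPM and Cck followed with 5.08. Unscaled Cck levels were 30.2, 29.7, 34.2 and 25.1 CPM in control mice and 40.0, 32.4, 33.3, 37.4 and 32.8 CPM in CUS mice. Control mouse 3 lay among the CUS mice, and the others of its group lay below all of them. The difference was 1.18-fold (means 29.8 ± 3.70 and 35.2 ± 3.37 CPM, log2 0.24, SE 0.09, edgeR quasi-likelihood FDR 0.148). Without control mouse 3 it was 0.31 on the log2 scale and passed the FDR, as did 8.1% of all genes. Over all fits that left out 1 mouse, the log2 difference of Cck ranged from 0.18 to 0.31.

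Tac2 (chr10:127724478-127731768, mm10), the precursor of neurokinin B, was the only one of the 8 genes with every CUS mouse above every control mouse, an order that 3.97% of tested genes showed. It had 1.39, 1.46, 1.71 and 1.32 CPM in the control mice and 2.10, 2.00, 1.75, 1.82 and 1.82 CPM in the CUS mice, on 37 to 59 counts per mouse. The highest control mouse (1.71 CPM) and the lowest CUS mouse (1.75 CPM) lay close together. The fold difference of 1.29 (log2 0.37, SE 0.14) had an FDR of 0.162 in edgeR's quasi-likelihood test.

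Pdyn (chr2:129686565-129699844, mm10), the dynorphin precursor, was the only one with a lower mean in CUS mice. Its levels were 3.65, 3.29, 4.08 and 6.69 CPM in control mice and 3.52, 3.85, 2.92, 3.35 and 3.57 CPM in CUS mice. Control mouse 4 was far above all other mice, which overlapped. The log2 difference of -0.37 (SE 0.19, edgeR quasi-likelihood FDR 0.284) became -0.08 without control mouse 4. That mouse also had 19.8 CPM of Drd1 against 5.34 to 8.06 in the other mice, 16.0 CPM of Penk against 2.51 to 4.99 and 11.2 CPM of Tac1 against 1.80 to 2.75. Of 9 tested striatal genes 8 had lower means in CUS mice (median log2 -0.77), and Gpr6 was too low to test. Without control mouse 4, 6 of the 9 were lower, with a median of -0.16 and a Drd1 difference of 0.01. The summed level of the 10 genes ran from 805 to 1269 CPM in control and from 1242 to 1509 CPM in CUS mice. Most of it was Pde10a, which is not particular to striatum. The part of striatal RNA in the difference of Pdyn was not tested beyond leaving out this mouse.

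Cort (chr4:149125034-149126763, mm10) and Pnoc (chr14:65400673-65425472, mm10), the precursors of cortistatin and nociceptin, had the smallest differences. Cort ranged from 0.752 to 1.26 CPM in control and from 0.563 to 1.26 CPM in CUS mice (log2 0.05, SE 0.25, 95% interval -0.49 to 0.59), with the lowest level of all in CUS mouse 4. The sign of the Cort difference changed when control mouse 1, CUS mouse 1 or CUS mouse 2 was left out, the values being -0.06, -0.01 and -0.03. Pnoc ranged from 1.00 to 1.32 CPM in control and from 1.08 to 1.36 CPM in CUS mice (log2 0.07, SE 0.17, 95% interval -0.29 to 0.43), and the difference ran from 0.01 without control mouse 3 to 0.14 without control mouse 1. Both rested on few reads, 17 to 37 counts per mouse for Cort and 27 to 41 for Pnoc, so a difference of the size seen for Npy lies within the interval of Cort.

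Other genes of interneurons were spread over both directions. Of 20 interneuron genes that are not peptides, 2 rose in CUS mice by edgeR's quasi-likelihood test. They were Htr3a, a serotonin receptor subunit (log2 0.73, FDR 0.0182), and Lamp5, a vesicle protein of neurogliaform cells (log2 0.39, FDR 0.0338). Lamp5 is not particular to interneurons, since in the nuclei below it was also among the leading genes of the excitatory Ex_L2/3-like class. Ndnf, a secreted factor of neurogliaform cells, fell (log2 -0.49, FDR 0.0300). Of all genes, 1.16% were called higher and 2.13% lower. The median of the 20 interneuron genes was -0.11, and 13 of them lay below 0. Gad1 and Gad2, which make GABA, had log2 differences of -0.32 and -0.26 (FDR 0.314 for both). Of 12 glial and vascular genes, markers of the other cells in the punch, 2 fell in CUS mice (Gja1, log2 -0.56, FDR 0.00813, and Aqp4, log2 -0.69, FDR 0.0171, both of astrocytes), against the same 2.13% of all genes. Of the 12 genes 10 lay below 0, with a median log2 of -0.17. The summed level of the 12 was 562 to 736 CPM in control and 511 to 597 CPM in CUS mice. Their part in the differences of the neuropeptide genes was not tested.

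Of 18 receptor genes for these peptides 15 were tested in bulk, and 2 passed edgeR's quasi-likelihood test, both higher in CUS mice, against 1.16% of all genes that were called higher. The median over the list was 0.08. Cckbr, the main Cck receptor of the brain, rose from 35.1 to 44.0 CPM (log2 0.33, SE 0.07, FDR 0.0246), and the CUS mice (41.9 to 46.5 CPM) did not overlap the control mice (31.2 to 38.4 CPM), the order that 3.97% of all genes showed. Oprl1, the nociceptin receptor, rose from 21.1 to 26.8 CPM (log2 0.35, SE 0.08, FDR 0.0385), again without overlap (at most 22.8 CPM in control and at least 24.6 CPM in CUS mice). The somatostatin receptors Sstr1 to Sstr4, the Npy receptors, the Vip receptors and the kappa opioid receptor Oprk1 did not pass the test, and Sstr5, Cckar and Tacr2 were too low for it.

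Among 12 genes for peptide processing and dense-core vesicles, 2 fell in CUS mice and none rose (median -0.05), against 2.13% of all genes that fell. Pcsk1, a convertase that cuts precursors, fell from 102 to 72.4 CPM (log2 -0.49, SE 0.12, edgeR quasi-likelihood FDR 0.0399), although control mouse 3, at 78.0 CPM, lay just above the highest CUS mouse at 77.9 CPM. Cadps2, which primes dense-core vesicles for release, fell from 203 to 164 CPM (log2 -0.30, SE 0.06, FDR 0.0148), with all CUS mice (160 to 174 CPM) below all control mice (186 to 212 CPM), as in 4.69% of all genes. None of 8 peptidases passed (median -0.09, edgeR quasi-likelihood test). At an unadjusted p under 0.05 there was 1 of the 8, against 21.5% of all genes. The 3 with the smallest p were Mme (log2 -0.71, FDR 0.218), Thop1 (0.21, FDR 0.237) and Nln (-0.14, FDR 0.495). Of 12 genes listed with the other precursors 10 were tested, with a median of 0.10 over the list. They included Crhbp (log2 0.32), which encodes a binding protein and not a precursor. Only Vgf, the precursor of TLQP peptides, passed (16.4 to 24.7 CPM, log2 0.59, SE 0.14, edgeR quasi-likelihood FDR 0.0465). It rose in CUS mice, against 1.16% of all genes that were called higher.

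Leaving out each of the 9 mice in turn kept the sign of every called gene of these lists. Gja1 passed the FDR in all 9 fits, and Pde10a and Aqp4 passed in all but the fit without control mouse 2. Pde10a, a phosphodiesterase from the striatal list, was higher in CUS mice (log2 0.61). It is not particular to striatum: in the nuclei below it had 489 CPM over all nuclei and 2538 CPM in the Adora2a-led striatal-like class. Cadps2 failed without control mouse 2 or CUS mouse 4, Htr3a without control mouse 2 or CUS mouse 5, and Cckbr without CUS mouse 1, 4 or 5. Oprl1 passed in 4 fits (without control mouse 3 or 4, or CUS mouse 1 or 2), Lamp5 in 3 (without control mouse 1 or 3, or CUS mouse 2) and Ndnf in 3 (without control mouse 3, or CUS mouse 1 or 2). Pcsk1 passed in 2 (without control mouse 3 or 4) and Vgf in 2 (without control mouse 3 or CUS mouse 2).

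Single nuclei then showed which cells carried each gene. The nuclei fell into 37 clusters, built without the 8 genes among the variable genes and named from other markers as "X-like", or else by their leading genes. Of these, 27 held over 200 nuclei and were compared between groups. The class where a gene was highest is a description, since the genes are themselves known marks of these cells. Levels below are CPM, the UMIs of a gene scaled to the total UMIs of the class in a mouse, averaged over the 8 mice.

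**Figure D2:**
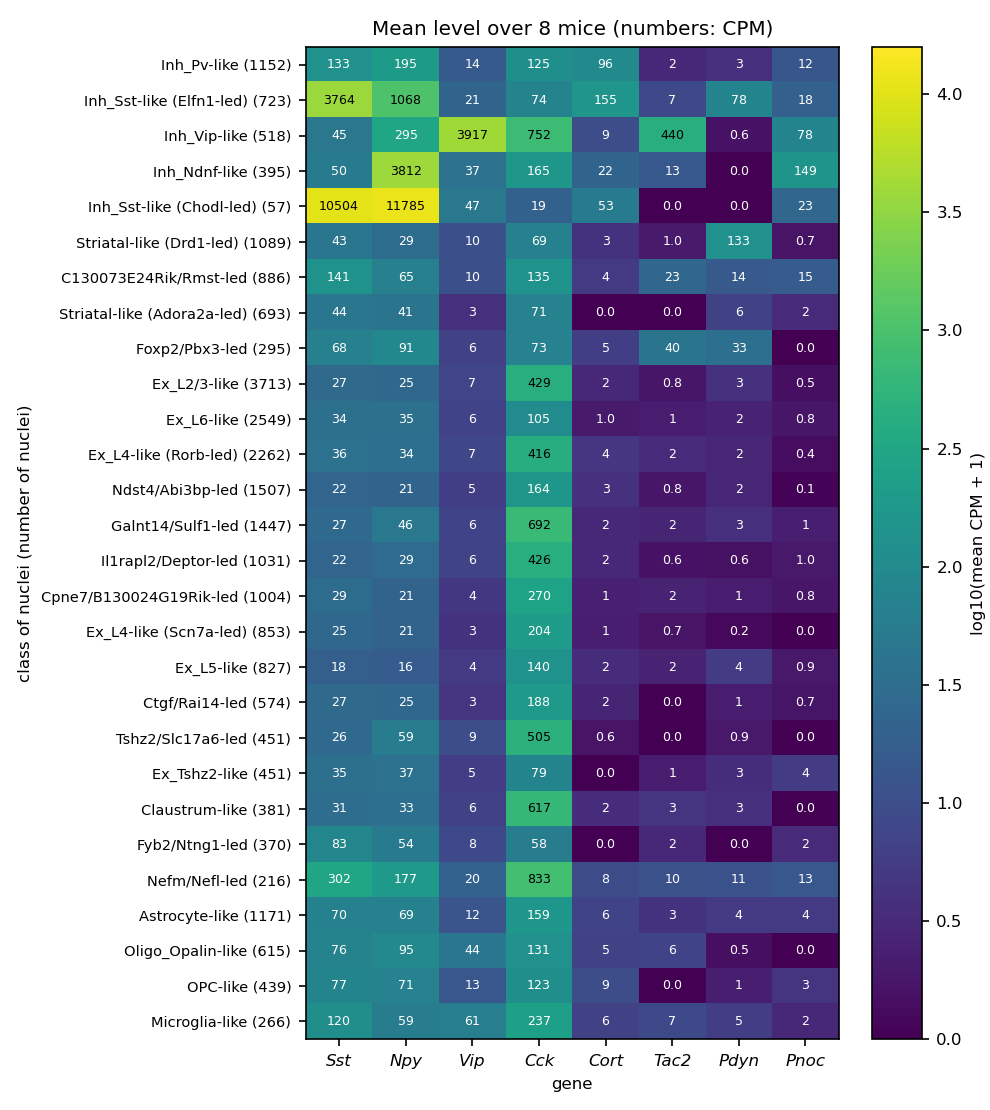
Mean CPM over 8 mice (colour, log10 of CPM + 1; the printed numbers are CPM) of the 8 genes (columns) in the 27 classes of over 200 nuclei and in the small Chodl-led cluster, where 7 mice had nuclei (rows, with the number of nuclei). Sst, Npy, Vip, Tac2, Cort and Pnoc peak in inhibitory classes, Pdyn in Drd1-led striatal-like nuclei, and Cck is spread over excitatory classes and Inh_Vip-like nuclei.

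Sst was highest among the tested classes in Inh_Sst-like nuclei (723 nuclei led by Elfn1 and Crhbp), at 3764 ± 1181 CPM (SD over 8 mice), 12.5 times the next class. These nuclei were 2.71% of all nuclei and held 61.9% of all Sst UMIs. After each nucleus was thinned to 1000 UMIs, Sst had a UMI in 82.8% of them (95% exact interval 79.7 to 85.6), against 5.19 to 6.99% in 4 glial classes, cells that should lack the gene. The classes after it, Inh_Pv-like among them (133 CPM), did not differ from their neighbors in the order beyond the spread over mice. Only 4 of the 27 classes lay above the highest glial class.

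A second, small Inh_Sst-like cluster led by Chodl and Tacr1, with Nos1 among its leading genes, held 57 nuclei and the highest levels of both Sst and Npy. Sst stood at 10504 CPM and Npy at 11785 CPM there, and the cluster held 12.3% of all Sst UMIs and 16.5% of all Npy UMIs in 0.213% of the nuclei. Of 52 thinned nuclei with Npy, 51 also had Sst (98.1%). CUS mouse 3 had none of these nuclei, and the other mice had 5 to 12 each, so the cluster was too small to test. Npy there was at 8639, 9980, 7438 and 7859 CPM in control mice 1 to 4 and at 11762, 11597 and 25221 CPM in CUS mice 1, 2 and 4. All 3 CUS values lay above the control values, but every value rested on only 5 to 12 nuclei. That of CUS mouse 4 rested on 8 nuclei, of which 1 held 154 of its 520 Npy UMIs. The share of all genes with this order in the cluster was not counted, so the order is given as a description only.

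Npy peaked among tested classes in Inh_Ndnf-like nuclei (395 nuclei, with the neurogliaform markers Ndnf, Kit, Lamp5 and Reln) at 3812 ± 1393 CPM. The next class, Inh_Sst-like (Elfn1-led), had 1068 ± 338 CPM, and both steps down to it and to Inh_Vip-like nuclei (295 CPM) were larger than the spread over mice. Inh_Ndnf-like nuclei held 34.0% of all Npy UMIs, and 66.2% of them had a UMI after thinning, against 5.19 to 5.64% in glia. Npy was thus split over 3 inhibitory classes, where Sst was concentrated in the Inh_Sst-like nuclei.

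Vip was the most restricted of the 8 genes. Inh_Vip-like nuclei (518 nuclei) had 3917 ± 338 CPM and 87.6% of all Vip UMIs, and no other class lay above the glial level of 11.6 to 60.8 CPM. Tac2 shared this class, with 440 ± 138 CPM and 71.5% of its UMIs, and its next class, the inhibitory Foxp2/Pbx3-led nuclei, had 39.8 CPM. The Foxp2/Pbx3-led nuclei also had the second highest level of Drd1 among the tested classes (178 CPM). After thinning, 61.4% of Inh_Vip-like nuclei had Vip and 25.1% had Tac2.

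Cort, like Sst, was highest in Inh_Sst-like (Elfn1-led) nuclei, at 155 ± 47.9 CPM, and Inh_Pv-like nuclei followed at 96.4 ± 21.8 CPM. Since Inh_Pv-like nuclei were more numerous, they held 39.0% of the Cort UMIs, beside 36.2% in the Inh_Sst-like class. Pnoc was highest in Inh_Ndnf-like nuclei (149 ± 44.9 CPM) and then in Inh_Vip-like nuclei (77.8 ± 27.4 CPM). Pdyn was highest in Drd1-led striatal-like nuclei (1089 nuclei, 133 ± 47.6 CPM, 48.5% of its UMIs), and next highest in Inh_Sst-like (Elfn1-led) nuclei, at 77.6 ± 35.1 CPM and 21.6% of its UMIs.

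Cck was spread over many excitatory classes. Its highest mean was in 216 unnamed nuclei led by Nefm and Nefl, at 833 ± 308 CPM, which had a median of 1014 UMIs and heat-shock and mitochondrial genes among their leading genes. Inh_Vip-like nuclei came next (752 CPM), then Galnt14/Sulf1-led (692 CPM), Claustrum-like (617 CPM), Tshz2/Slc17a6-led (505 CPM) and Ex_L2/3-like nuclei (429 CPM), and no neighbors among these 6 differed beyond the spread over mice. Ex_L2/3-like nuclei, the largest class, held 24.7% of all Cck UMIs. In glia Cck stood at 123 to 237 CPM, which 9 of the 27 classes exceeded.

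The genes most like each neuropeptide gene over the 37 clusters were found by Pearson's r of log2(CPM + 10) in control mice, as a description over clusters of the same mice. For Sst they were Crhbp (r 0.86), Lhx6 (0.82) and Nxph2 (0.76), and for Cort they were Lhx6 (0.82), Crhbp (0.82) and Gm31218 (0.79). Npy was most like Fam46a (0.80), Lhx6 (0.77) and Dlx2 (0.77). Vip was most like Prox1os (0.79), Grpr (0.77) and Crh (0.76), and Tac2 was most like Gm48259 (0.83), Grpr (0.79) and Crispld2 (0.74). For Pnoc they were Sln, Dlx1as and Gm45768 (0.76 each), for Pdyn Ptprv (0.68), Impg1 (0.63) and Lrrc10b (0.62), and for Cck Tmem14a (0.70), Pip4k2c (0.70) and Arhgap15 (0.69). Among the 8 genes themselves the closest pairs were Sst with Npy (0.80) and Vip with Tac2 (0.74).

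Within a class, UMIs of some of the peptides were found in the same nuclei. Nuclei with or without a gene are those with or without a UMI of it, and in glia the share with a UMI was 0 to 1.42% for Tac2, 8.58 to 14.2% for Cck and 0 to 0.474% for Pnoc. In thinned Inh_Vip-like nuclei, Tac2 had a UMI in 34.4% of 282 nuclei with Vip and in 10.2% of 177 without, with the same order in 8 of 8 mice. Cck went the other way, in 28.4% of nuclei with Vip and 41.8% of those without, and it was higher with Vip in 1 of 8 mice. Yet Cck had a UMI in 47.0% of 115 nuclei with Tac2 and in 29.1% of those without (8 of 8 mice).

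In Inh_Sst-like (Elfn1-led) nuclei, Sst was found in 91.7% of 300 nuclei with Npy and in 75.7% of 374 without, and Cort in 19.7% and 5.35% (8 of 8 mice for both). Sst was found in 41 of 43 nuclei with Pdyn (95.3%) and in 81.9% of 631 without. Inh_Pv-like nuclei held a minority with Npy (12.1% of 1054), and of these 21.9% had a UMI of Sst and 21.9% one of Cort, against 5.94% for each among nuclei without Npy, with the same order in 8 of 8 mice. For Sst the 5.94% lies within the glial range of 5.19 to 6.99%, so it is read as background, and for Cort the glial range was 0.338 to 1.119%. Pnoc in Inh_Ndnf-like nuclei was found in 17.6% of nuclei with Npy and in 11.5% of those without, in that order in 5 of 8 mice.

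**Figure D3:**
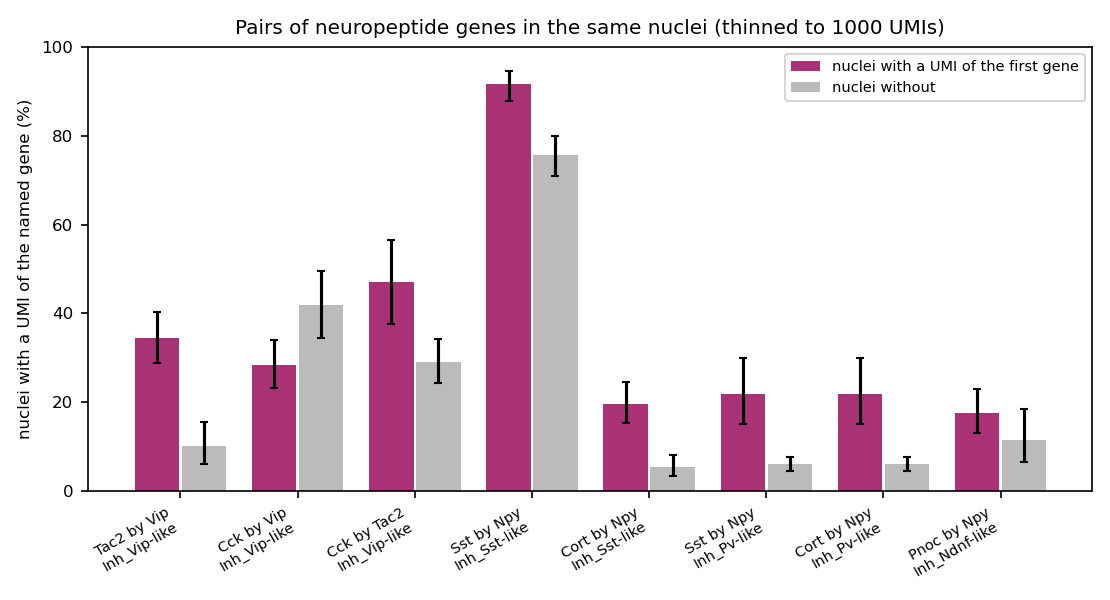
Share of nuclei with a UMI of the second gene (vertical axis, percent) among nuclei with (purple) and without (grey) a UMI of the first gene, after thinning to 1000 UMIs, with 95% exact intervals that cover counting error only. Sst, Cort and Tac2 are more frequent beside Npy or Vip, and Cck is less frequent beside Vip (28.4% against 41.8%).

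Between the groups, Npy was again the gene with the clearest difference when the UMIs of all nuclei were summed. It stood at 125, 111, 120 and 112 CPM in control mice 1 to 4 and at 182, 116, 159 and 192 CPM in CUS mice 1 to 4. CUS mouse 2 lay within the control range and the other 3 above it, a 1.37-fold difference (log2 0.46, SE 0.12, unadjusted p 0.00253, edgeR quasi-likelihood FDR 0.596). At an FDR of 0.2 the quasi-likelihood test called 1 of 5018 genes (0.0199%) and none of the 4 neuropeptide genes that passed the filter on low counts. The likelihood ratio test of edgeR and DESeq2 each called Npy, against 0.339% and 0.438% of all genes, and at an unadjusted p under 0.05 it was also the only one, against 8.01% of all genes.

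Sst was at 132, 114, 175 and 143 CPM in control and at 171, 97.1, 203 and 207 CPM in CUS mice (log2 0.25, SE 0.19). Cck was at 295, 206, 272 and 240 CPM in control and at 353, 231, 283 and 343 CPM in CUS mice (log2 0.24, SE 0.13). Both sets of mice overlapped, with CUS mouse 2 the lowest of its group for each gene. Leaving out 1 mouse, Sst ranged from 0.15 (without CUS mouse 4) to 0.44 and Cck from 0.16 (without control mouse 2) to 0.34, both highest without CUS mouse 2. Vip differed least (log2 0.14, SE 0.14, 95% interval -0.17 to 0.45), with 0.03 without control mouse 3 or CUS mouse 4 and 0.24 without control mouse 4, and Cort, Tac2, Pdyn and Pnoc, at 19 to 148 UMIs per mouse, were below the filter. Without CUS mouse 2, which stood apart from the other CUS mice in striatal genes, Npy (log2 0.58), Sst (0.44) and Cck (0.34) passed the FDR. So did 16.2% of 5125 tested genes. In that fit the groups were also fully apart in the summed striatal genes, at 617 to 749 CPM in CUS and 925 to 966 CPM in control mice. The part of this in the differences was not tested.

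Tested class by class, the neuropeptide genes gave 56 comparisons, and 1 passed an FDR of 0.2 in edgeR's quasi-likelihood test, against 0.122% of all gene and class pairs. At an unadjusted p under 0.05 there were 11, of which 9 were higher in CUS mice, against 6.05% of all pairs in either direction. The share of all pairs that were higher at this p was not counted. Among the 11 were Sst and Npy in Fyb2/Ntng1-led nuclei and Vip in Microglia-like nuclei. Each of these passed the filter on low counts only through 1 mouse of the group where it was high, so these tests decide nothing. Only 26 of the 56 comparisons were in classes where the gene's mean level lay above every glial class, and these held 6 of the 11, 5 of them higher. The 1 call was Sst in the Fyb2/Ntng1-led class (log2 3.09, SE 0.77, FDR 0.0452), and it rested on a single nucleus of CUS mouse 3, which had 100 of that mouse's 103 Sst UMIs. The other 7 mice had 1 to 6 Sst UMIs each in this class. Without CUS mouse 3 the pair fell below the filter on low counts and was not tested. No neuropeptide gene was called in any class in that fit, or without control mouse 1 or control mouse 3.

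**Figure D4:**
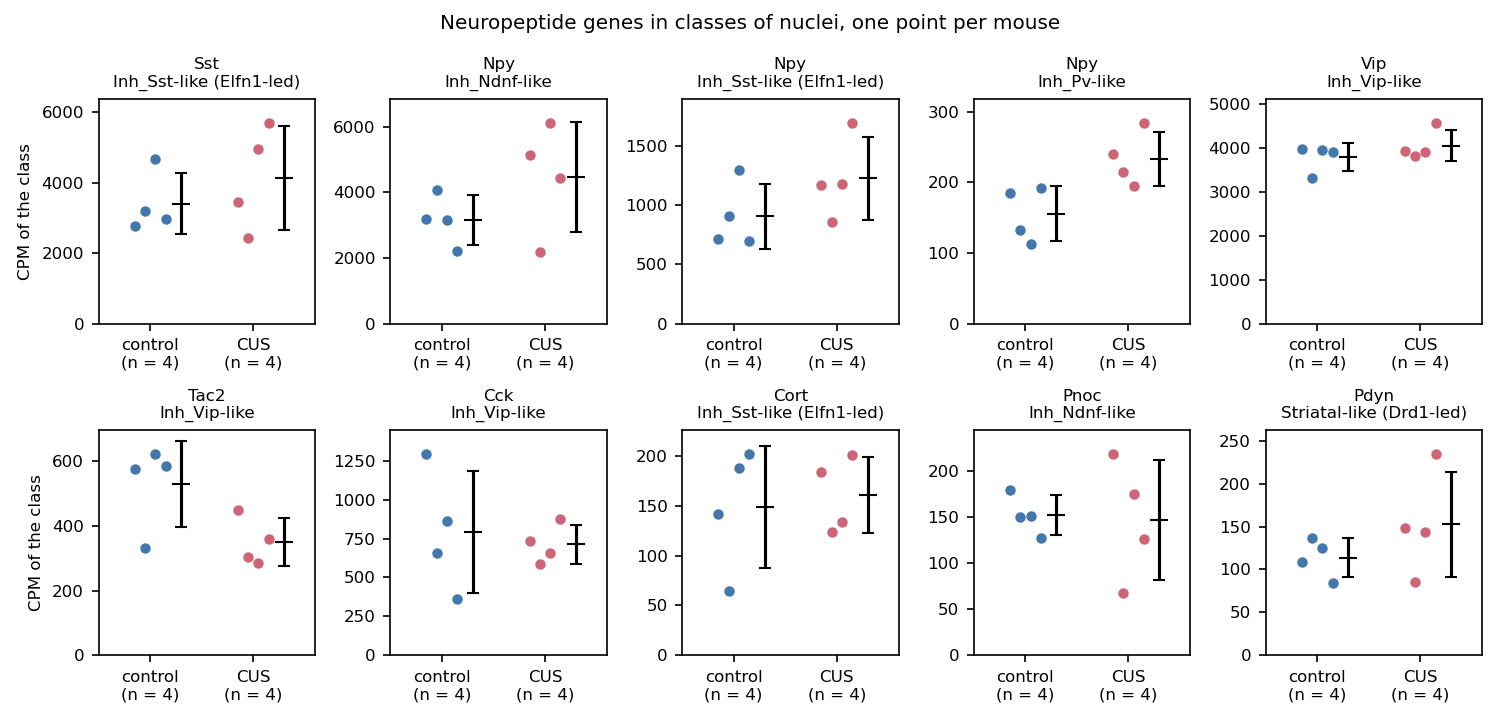
CPM of the neuropeptide genes in 10 selected pairs of gene and class (vertical axes from 0), with 1 point per mouse and the mean ± SD beside it, for 4 control (blue) and 4 CUS (red) mice. Of the 10 gene and class pairs drawn, Npy in Inh_Pv-like nuclei has groups that do not overlap. Tac2 and Cck in Inh_Vip-like nuclei and Pnoc in Inh_Ndnf-like nuclei have lower means in CUS mice. Pnoc in Inh_Vip-like nuclei, whose groups do not overlap either (at most 66.7 CPM in control, at least 80.5 CPM in CUS mice), is not drawn. Npy in Inh_Vip-like nuclei, with a lower mean in CUS mice (log2 -0.47), is not drawn either.

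Npy lay above the glial level in 5 of its 12 tested classes, and in 3 of these it was higher in CUS mice at an unadjusted p under 0.05, with none past the FDR. The other 2 of the 5, Inh_Vip-like and Nefm/Nefl-led nuclei, lay below 0. In Inh_Ndnf-like nuclei it was at 3174, 4056, 3165 and 2216 CPM in control and at 5151, 2179, 6113 and 4438 CPM in CUS mice. CUS mouse 2 was the lowest of all 8 mice and the other 3 CUS mice were the highest (log2 0.51, SE 0.22, p 0.0265, edgeR quasi-likelihood FDR 0.984). The difference was 0.71 without CUS mouse 2 and 0.32 without CUS mouse 3. In Inh_Sst-like (Elfn1-led) nuclei it was at 720, 909, 1297 and 701 CPM against 1177, 856, 1184 and 1699 CPM, with overlap (log2 0.42, SE 0.19, FDR 0.827), and was 0.53 without CUS mouse 2, 0.64 without control mouse 3 and 0.23 without CUS mouse 4.

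In Inh_Pv-like nuclei Npy was at 184, 133, 113 and 192 CPM in control and at 240, 215, 194 and 284 CPM in CUS mice. The groups did not overlap, on 38 to 148 UMIs per mouse, with all CUS above all control mice as in 1.48% of genes tested in this class, and the difference was 1.59-fold (log2 0.67, SE 0.18, p 0.000862, edgeR quasi-likelihood FDR 0.853). Leaving out each mouse in turn gave log2 differences of 0.51 to 0.77 there. In the 7 classes not above the glial level, Npy had 5 differences below 0, and the 2 above 0 were Foxp2/Pbx3-led (log2 1.32) and Fyb2/Ntng1-led nuclei (1.85). In the latter, 42 of the 48 Npy UMIs of CUS mouse 3 came from 1 nucleus, without which the gene would not have been tested there. In Inh_Vip-like nuclei, by contrast, the Npy mean was lower in CUS mice (346 against 243 CPM, log2 -0.47, SE 0.26, FDR 0.994).

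Sst in Inh_Sst-like (Elfn1-led) nuclei was at 2776, 3185, 4667 and 2973 CPM in control and at 3443, 2429, 4949 and 5694 CPM in CUS mice. The groups overlapped over most of their range (log2 0.27, SE 0.21, 95% interval -0.15 to 0.69, edgeR quasi-likelihood FDR 0.927). The difference ranged from 0.09 without CUS mouse 4 to 0.45 without control mouse 3, and was 0.43 without CUS mouse 2. Cort in these nuclei was at 142, 64.7, 188 and 202 CPM in control and at 184, 124, 134 and 202 CPM in CUS mice (log2 0.20, SE 0.25), and leaving out control mouse 2 turned the difference to -0.11. In Inh_Pv-like nuclei Cort was at 80.2, 73.7, 96.0 and 80.9 CPM in control and at 99.4, 84.0, 134 and 123 CPM in CUS mice, with 3 of 4 CUS mice above all control mice (log2 0.42, SE 0.21, edgeR quasi-likelihood FDR 0.952). In Inh_Sst-like (Elfn1-led) nuclei the Pdyn difference was 0.02 (SE 0.32), and it ran from -0.16 without control mouse 4 to 0.50 without control mouse 2, with the sign turned in 5 of the 8 fits that left out a mouse.

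Vip in Inh_Vip-like nuclei was at 3974, 3315, 3959 and 3907 CPM in control and at 3921, 3803, 3895 and 4563 CPM in CUS mice. The other 6 mice, all but control mouse 2 and CUS mouse 4, lay within a narrow band, and the difference was the most tightly bounded of the home classes (log2 0.10, SE 0.18, 95% interval -0.27 to 0.47), with 0.03 without control mouse 2 and 0.05 without CUS mouse 4. Tac2 in the same nuclei was at 577, 332, 622 and 587 CPM in control and at 451, 304, 285 and 360 CPM in CUS mice. Control mouse 2 lay among the CUS mice and the other 3 controls lay above them all (log2 -0.54, SE 0.23, p 0.0214, edgeR quasi-likelihood FDR 0.994), the opposite side from Tac2 in bulk (0.37). Bulk and nuclei came from different mice, tissue and ages, so the 2 values are only set side by side.

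Cck in Inh_Vip-like nuclei was at 1291, 655, 866 and 360 CPM in control and at 733, 583, 658 and 873 CPM in CUS mice, and control mice spanned the whole CUS range. The log2 difference of -0.13 turned to 0.17 without control mouse 1. In Ex_L4-like (Rorb-led) nuclei it was at 377, 299, 417 and 307 CPM in control and at 568, 335, 494 and 533 CPM in CUS mice, with 3 of 4 CUS mice above all control mice (log2 0.45, SE 0.15, p 0.00533, edgeR quasi-likelihood FDR 0.337). Without CUS mouse 2 the Cck difference there was 0.56 and passed the FDR, as did 8.82% of the genes tested in this class. In the 9 classes above the glial level, the Cck difference lay above 0 in 7, with the Rorb-led class alone at an unadjusted p under 0.05. In the Nefm/Nefl-led nuclei it was at 901, 954, 1334 and 688 CPM in control and at 827, 225, 868 and 871 CPM in CUS mice, the 225 resting on 1 UMI (log2 -0.21, SE 0.45). That difference was -0.01 without control mouse 3 and -0.08 without CUS mouse 2.

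Pnoc in Inh_Ndnf-like nuclei had means that differed by less than the spread between mice (152 ± 21.5 against 147 ± 65.0 CPM, log2 -0.003, 95% interval -0.62 to 0.62). In Inh_Vip-like nuclei it was at 37.6, 57.8, 63.0 and 66.7 CPM in control and at 80.5, 109, 87.8 and 120 CPM in CUS mice, without overlap, an order shown by 1.27% of genes tested in this class, on 3 to 22 UMIs per mouse (log2 0.82, SE 0.37, p 0.0302, edgeR quasi-likelihood FDR 0.994). Pdyn in Drd1-led striatal-like nuclei was at 108, 137, 125 and 84.5 CPM in control and at 148, 85.3, 143 and 234 CPM in CUS mice, with overlap (log2 0.32, SE 0.24). Without CUS mouse 2 this difference was 0.51, and without CUS mouse 4 it was 0.08. These nuclei made up 4.58 to 5.94% of control nuclei and 2.65, 5.33, 3.06 and 1.41% of those of CUS mice 1 to 4.

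**Figure D5:**
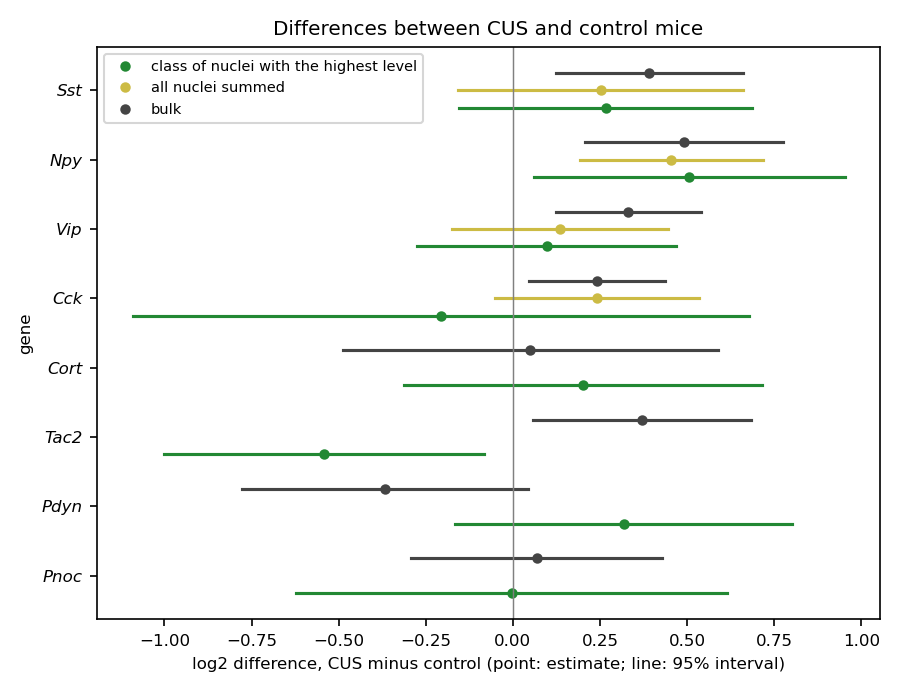
Log2 difference, CUS minus control, of each gene (point) with its 95% interval (line), in bulk mPFC RNA (black), in all nuclei summed (yellow, 4 genes passed the filter) and in the class of over 200 nuclei with its highest level (green). Npy lies to the right of 0 in all 3, at 0.49, 0.46 and 0.51, and Tac2 lies on opposite sides in bulk (0.37) and Inh_Vip-like nuclei (-0.54).

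With 4 mice against 4, an exact permutation test can give no p below 0.0286, so after adjustment a single share of nuclei could not have passed 0.05 on its own, and the shares are given as values. Tac2 had the smallest p for the share of thinned nuclei with a UMI in its class, 31.1 ± 7.38% in control and 20.1 ± 7.99% in CUS mice (exact permutation test over mice, two-sided, p 0.0571, 0.457 after Benjamini-Hochberg adjustment over the 8 genes, n = 4 and 4). For the other 7 genes the exact permutation p was at least 0.171. Cck in Nefm/Nefl-led nuclei had the largest difference, 67.9% in 4 control against 50.7% in 3 CUS mice, on 1 to 33 nuclei per mouse, and without control mouse 1, whose 100% came from 1 nucleus, it fell from -17.2 to -6.46 points. Inh_Pv-like nuclei were 4.13 ± 0.229% of control and 4.52 ± 0.439% of CUS nuclei, Inh_Sst-like (Elfn1-led) nuclei 2.6 ± 0.534% and 2.80 ± 0.306%, Inh_Vip-like nuclei 1.85 ± 0.291% and 2.07 ± 0.234%, and Inh_Ndnf-like nuclei 1.41 ± 0.173% and 1.55 ± 0.135%. The 4 differences, higher in CUS mice by 0.385, 0.195, 0.217 and 0.133 points, had adjusted exact permutation p values of at least 0.571, as did the Chodl-led nuclei (0.225% against 0.204%). The Inh_Sst-like difference was 0.0161 points without control mouse 4 and 0.436 without control mouse 1, the Inh_Vip-like one 0.0808 without control mouse 3, and the Inh_Ndnf-like one 0.0861 without CUS mouse 1 and 0.216 without control mouse 1. That of the Chodl-led nuclei turned to 0.0461 points without CUS mouse 3.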

How the data were processed

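Bulk nuclear RNA of 9 mice and sNucDrop-seq nuclei of 8 mice were analyzed, grouped by the sample labels. The authors deposited whole-number counts: bulk reads per gene, mapped to mm10 with STAR, and UMIs per gene and barcode for 5000 barcodes per mouse, exonic and intronic, without normalization. Kept nuclei had 600 to 5000 genes, a mitochondrial share under 5% and a Scrublet doublet score, computed anew, of at most 0.2 (26698 of 40000 barcodes; the score removed 15.2%, and fewer nuclei remained than in the study). They were clustered with Seurat 5.3.0 (2000 variable genes minus the 8 genes, 50 components, resolution 1). Counts, summed per mouse for nuclei, were tested with edgeR 4.0.16 (R 4.3.3) by the quasi-likelihood test with TMM factors, filterByExpr in bulk, and in nuclei genes whose UMIs exceeded 10% of the number of nuclei. FDR thresholds were 0.05 and 0.2. Shares were compared by exact permutation tests. Intervals on shares cover counting error only. Scripts were tested on simulated data.

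The study used 2 batches of nuclei, reports a profound effect of batch on its differential test and included batch in its model. The labels do not assign batches to mice, so here no batch term was fitted and no within-batch value is given. The part of the batch in the differences between nuclei was not tested. Named genes were the 8 genes, from each list those past the FDR in bulk or else the 3 with the smallest p, and the 3 genes most like each of the 8; other names were chosen after their values were seen. The 8 genes and the lists were chosen with earlier results of these data known. The alternatives were the likelihood ratio test, DESeq2 1.42.0, library sizes without TMM, all genes unfiltered, a replicate block, leaving out each mouse, other clusterings and filters on nuclei, and, added after the data were seen, pooling both Inh_Sst-like clusters.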

Additional observations from a re-analysis of the deposited data

Results flagged for a closer look

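In 6 of 73 groups of 4 or 5 mice, 1 mouse lay apart from the others by Dixon's criterion, which chance alone does in about 1 group in 20. In Inh_Vip-like nuclei of control mice, control mouse 2 was lowest for Vip (3315 CPM against 3907 to 3974) and for Tac2 (332 CPM against 577 to 622). Among CUS mice, CUS mouse 4 was highest for Vip in these nuclei (4563 CPM against 3803 to 3921). Cck in Nefm/Nefl-led nuclei was at 225 CPM in CUS mouse 2, from 1 UMI, against 827 to 871 CPM. Over all nuclei, Cort was lowest in control mouse 2 (6.51 CPM against 9.68 to 10.1), and Pdyn was highest in CUS mouse 1 (9.81 CPM against 7.83 to 8.03).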

How the results depend on the processing

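In bulk, the count of called neuropeptide genes went from 0 to 3 with the likelihood ratio test and to 3 with DESeq2 (Sst, Npy and Vip in both), to 1 without the filter on low counts (Npy), and ranged from 0 to 2 when each mouse was left out. Over all nuclei it went from 0 to 1 with the likelihood ratio test, with DESeq2 and without the filter, and ranged from 0 to 3, the 3 being without CUS mouse 2. Over classes the 1 call became 0 with DESeq2, without the doublet filter, at resolutions 0.6 and 1.5 and with the 8 genes kept among the variable genes, and 2 without the filter on low counts, with a minimum of 1000 genes and with a replicate block. Leaving out each mouse gave 0 to 3 there, with 0 without CUS mouse 3, control mouse 1 or control mouse 3, and 3 without CUS mouse 2. The called pair was not tested without CUS mouse 3, where it fell below the filter on low counts. Nor was it tested at resolution 0.6, where no cluster matched its class. For shares of expressing nuclei and of inhibitory classes the count was 0 to 0, which the number of mice fixes and which says nothing about stability.

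The labels do not say that a replicate number marks a shared animal, litter or batch, and same-numbered mice did not deviate together in every pair (r 0.0249 to 0.146 in bulk, -0.452 to 0.399 in nuclei). In nuclei, control mice 1 to 4 correlated best with CUS mice 1, 3, 4 and 2 (r 0.364, 0.531, 0.522 and 0.525). The replicate block left 0 calls in bulk and 0 over all nuclei, and turned the Cort bulk difference to -0.0117.

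Other reversed log2 differences were Cort in Inh_Sst-like nuclei (-0.0937 without the doublet filter), Pnoc in Inh_Ndnf-like nuclei (0.14 with a minimum of 1000 genes), Cck in Inh_Vip-like nuclei (0.0468 with that minimum) and Pdyn in Inh_Sst-like nuclei (-0.006 without the filter on low counts and -0.10 with the minimum). The share difference became -0.92 points for Sst and 0.65 for Cort without thinning, and 2.18 for Cort at 600 UMIs. Leaving out mice spanned 0: Cort in bulk -0.0612 to 0.21, Cort in Inh_Sst-like nuclei -0.11 to 0.42, Pnoc -0.24 to 0.14, Cck in Inh_Vip-like nuclei -0.34 to 0.17 and Pdyn in Inh_Sst-like nuclei -0.16 to 0.50. For shares in points the ranges were -3.52 to 6.93 for Sst, -3.00 to 7.16 for Npy, -2.75 to 1.42 for Vip, -2.50 to 0.78 for Cort, -3.20 to 3.95 for Pnoc and -0.08 to 0.0461 for the Chodl-led nuclei. The cause was not tested in any of these. Low counts of Cort, Pnoc, Tac2 and Pdyn limit what could be detected.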

Other observations

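In single nuclei, edgeR's quasi-likelihood test over all nuclei called 1 of 5018 genes (0.0199%) at an FDR of 0.2. It could test 2 of 18 receptor genes, 12 of 12 processing genes, 3 of 8 peptidases and 3 of 12 genes listed with the other precursors. None of these passed, and Oprl1 fell below the filter on low counts. Within classes 0.122% of all gene and class pairs passed that FDR, and the pairs of these lists were not counted. Vgf was higher in CUS mice in Ex_L2/3-like nuclei (log2 0.70, FDR 0.0753) and in Ex_L4-like (Rorb-led) nuclei (log2 0.87, FDR 0.106). Nln, a peptidase, was lower in Ex_L2/3-like nuclei (log2 -0.63, FDR 0.0895). Lamp5 was higher in Ex_L4-like (Rorb-led) nuclei (log2 0.70, FDR 0.112) and Dlx1 in C130073E24Rik/Rmst-led nuclei (1.37, FDR 0.138). Pde10a was higher in Ex_L4-like (Scn7a-led) nuclei (0.68, FDR 0.0219), and Rgs9 was lower in Microglia-like nuclei (-2.56, FDR 0.00623). Rgs9 is from the striatal list and had its highest levels in the striatal-like classes (1703 CPM Adora2a-led, 1622 CPM Drd1-led). Its UMIs per mouse in Microglia-like nuclei were not looked at, so whether that call rested on 1 mouse or on stray RNA was not tested. Among the 27 classes of over 200 nuclei, Cckbr had its highest level in Ex_L6-like nuclei (75.4 CPM), closely followed by Ex_L2/3-like nuclei (75.0 CPM), Npy1r in Inh_Vip-like nuclei (115 CPM) and Sstr2 in Claustrum-like nuclei (144 CPM). Vip in Microglia-like nuclei had a log2 difference of -2.85 (FDR 0.611), with 26 UMIs in control mouse 3 and at most 6 in any other mouse. Without control mouse 3 the gene would not have been tested there. With both Inh_Sst-like clusters pooled, a choice made after seeing the data, the log2 differences were 0.56 for Npy and 0.12 for Sst.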
